A study of Mus musculus with 6 samples.

Results

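The smooth muscle contractile genes are 10 rows of the deposited expression table, chosen by gene symbol alone: *Acta2*, *Actg2*, *Myh11*, *Mylk*, *Des*, *Tagln*, *Cnn1*, *Smtn*, *Synpo2* and *Lmod1*. All 10 were found among the 27202 genes listed, and all 10 were among the 16246 that were tested, those averaging at least 10 over the libraries. They were read as a measure of how much muscle layer each colon library held. RNA sequencing gave 3 colon libraries per genotype, and the labels do not say whether each came from a separate animal. In the Villin Cre genotype the ubiquitin ligase gene *Nedd4l*, floxed on both alleles, is lost in the intestinal epithelial cells (IECs) where the Villin promoter drives Cre. The controls were littermates with the floxed alleles (*Nedd4l* fl/fl) but without Cre. Both groups carry the floxed allele on a C57BL/6J background, were 8 to 10 weeks old and drank 2% dextran sulfate sodium (DSS), which injures the colonic epithelium, for 7 days before the tissue was taken. Mice without DSS were not analysed here, and the sources used here do not say which stretch of colon, or how much of its wall, went into each sample. Villin Cre is not active in smooth muscle, so the deletion does not target the cells that make these 10 transcripts.

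Smooth muscle forms the inner circular and outer longitudinal layers of the colon wall and the thin muscularis mucosae under the epithelium, and it also surrounds arteries and veins. Its contraction begins when calcium and calmodulin activate myosin light chain kinase, which phosphorylates the regulatory light chain so that myosin filaments pull on actin filaments anchored in dense bodies. Most contractile genes of this tissue are activated by serum response factor with its partner myocardin, which bind a short DNA element called the CArG box. In whole tissue, fewer muscle cells and less contractile RNA per muscle cell cannot be told apart.

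The values are normalized counts, that is the reads of a gene after division by a size factor that corrects for library depth. Library totals were 14914367 to 17547270 in units of each library's smallest value. *Nedd4l* itself stood at 476, 942 and 566 normalized counts in Villin Cre replicates 1, 2 and 3 and at 1241, 1271 and 1266 in the control replicates, so that Villin Cre replicate 2 was the nearest of the 3 to the controls. Epithelial markers were abundant in all libraries (13 genes, summed normalized counts of 276360 to 339872), the tissue that the labels give. Across all tested genes 0 were lower and 0 higher at an adjusted p under 0.05 (limma with Benjamini-Hochberg adjustment), whereas at an unadjusted p under 0.05 1151 were lower and 1122 higher.

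The contractile genes differed more among libraries of 1 genotype than between the genotypes. Every one of the 10 was highest in control replicate 2, which was the highest library for 18.2% of all tested genes. Among the controls, 9 of the 10 were highest in replicate 2 and lowest in replicate 3, an order that 16.2% of tested genes had. For *Actg2*, *Des*, *Tagln*, *Cnn1*, *Smtn* and *Synpo2* the lowest library was Villin Cre replicate 1, and for *Acta2*, *Myh11*, *Mylk* and *Lmod1* it was control replicate 3. All 10 log2 fold changes of Villin Cre over control were below 0, against 49.8% of tested genes, but 0 of the 10 passed the adjusted threshold in either direction (background 0% in each direction), 0 passed at an unadjusted p under 0.05 (7.08% of tested genes were lower and 6.91% higher) and 0 had groups that did not overlap (10.9% lower and 10.5% higher in the background). The median log2 fold change of the 10 was −0.27. Without control replicate 2 it was 0.16, and 8 of the 10 were above 0.

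**Figure D1:**
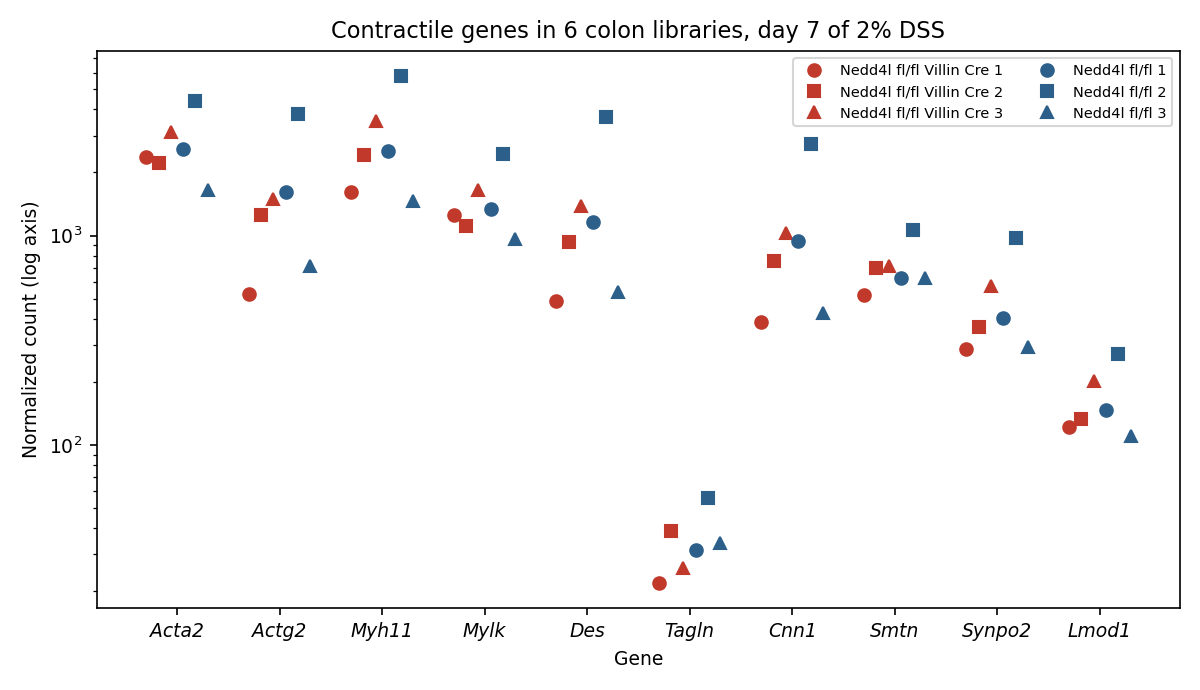
Normalized counts (log axis) of the 10 contractile genes in each of the 6 colon libraries, 1 point per library, with *Nedd4l* fl/fl Villin Cre mice in red and *Nedd4l* fl/fl mice in blue. Control replicate 2 is the highest point for every gene, and the points of both genotypes are otherwise interspersed.

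The motor of the contractile apparatus was the first group. *Myh11* (ENSMUSG00000018830, GRCm38 chromosome 16, 14194535 to 14291372, minus strand) encodes the smooth muscle myosin heavy chain. Its normalized counts were 1614, 2413 and 3518 in the Villin Cre mice and 2537, 5770 and 1460 in the controls. The controls held both the highest and the lowest library. The log2 fold change was −0.21 (95% interval −1.59 to 1.16, adjusted p = 0.883 from limma). *Mylk* (ENSMUSG00000022836, chromosome 16, 34745210 to 35002420, plus strand), the gene of myosin light chain kinase, gave 1259, 1107 and 1650 in Villin Cre and 1333, 2461 and 966 in control mice. Here too the Villin Cre values lay inside the range of the controls, with a log2 fold change of −0.15 (−1.04 to 0.73, adjusted p = 0.867 from limma). *Mylk* spanned a smaller range over the 6 libraries (2.55-fold) than *Myh11* did (3.95-fold). *Mylk* is also transcribed in cells outside smooth muscle, and their part in this range was not tested.

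Of the muscle actins, *Acta2* encodes the alpha isoform, found in vascular and visceral smooth muscle, in pericytes and in activated fibroblasts, whereas *Actg2* encodes the gamma isoform that dominates visceral muscle of the gut. *Acta2* (ENSMUSG00000035783, chromosome 19, 34241090 to 34255336, minus strand) stood at 2360, 2231 and 3133 normalized counts in Villin Cre and 2590, 4403 and 1651 in control mice. Its log2 fold change was the nearest to 0 of the 10, at −0.06 (−0.97 to 0.84, adjusted p = 0.949 from limma). *Actg2* (ENSMUSG00000059430, chromosome 6, 83512905 to 83536265, minus strand) gave 528, 1254 and 1490 against 1609, 3821 and 717. The values of Villin Cre replicate 1 and control replicate 3 were the 2 lowest, and control replicate 2 was 7.23-fold above the lowest. Its log2 fold change of −0.72 was the farthest from 0 of the 10 but had the interval −2.45 to 1.01 (adjusted p = 0.662 from limma).

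Since *Acta2* showed CArG boxes in the stretch before its transcription start, its sequence is shown here beside those of 2 genes of the same apparatus that also hold more than 1 box, *Myl9*, which encodes the regulatory myosin light chain, and *Srf*, which encodes serum response factor. A box was taken as CC, a core of 6 bases with at most 1 G or C, and GG, a pattern that reads the same way on both strands, and it was chosen after the sequences had been seen. The 250 bases before the RefSeq start were searched, and the windows run 5′ to 3′ on the gene's strand with the boxes in capitals. They lie on GRCm38.p6 at chr19:34255380-34255475 (minus strand), chr2:156775285-156775392 (plus strand) and chr17:46556197-46556262 (minus strand).
Acta2: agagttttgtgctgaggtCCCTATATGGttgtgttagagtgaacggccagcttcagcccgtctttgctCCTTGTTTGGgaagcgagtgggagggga
Myl9: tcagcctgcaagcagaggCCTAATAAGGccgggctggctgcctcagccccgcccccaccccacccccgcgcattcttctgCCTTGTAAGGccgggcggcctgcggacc
Srf: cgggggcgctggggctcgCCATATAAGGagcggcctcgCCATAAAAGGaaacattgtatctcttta
The boxes of *Acta2* begin 84 and 34 bases before the start, those of *Myl9* 161 and 99, and those of *Srf* 82 and 62. At least 1 box was present in 8.59% of 32851 RefSeq promoters of this length and more than 1 box in 0.67%. Of the 7 contractile genes with a RefSeq promoter here (*Acta2*, *Cnn1*, *Des*, *Lmod1*, *Mylk*, *Smtn* and *Synpo2*), *Acta2* alone held the pattern. The search says nothing of elements outside the window, and the RefSeq starts of *Mylk* and *Smtn* lie well inside the spans that the table gives for these genes. The genes shown did not vary alike, because *Srf* stood at 1041, 1243 and 1158 normalized counts in Villin Cre and 988, 1111 and 958 in control mice, a far narrower range than that of *Acta2*.

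Proteins bound along the actin filament made up the next group. Calponin 1, encoded by *Cnn1* (ENSMUSG00000001349, chromosome 9, 22099216 to 22109630, plus strand), binds actin and damps myosin ATPase. Its normalized counts were 384, 754 and 1031 in Villin Cre and 938, 2721 and 424 in control mice. Villin Cre replicate 1 and control replicate 3 were the low libraries, as for *Actg2*, and the log2 fold change was −0.62 (−2.45 to 1.21, adjusted p = 0.725 from limma). *Smtn* (ENSMUSG00000020439, chromosome 11, 3517523 to 3540612, minus strand), the gene of smoothelin, gave 520, 696 and 713 against 628, 1063 and 624. It spanned the smallest range of the 10 (2.05-fold), with a log2 fold change of −0.23 (−0.79 to 0.33, adjusted p = 0.675 from limma). *Lmod1* (ENSMUSG00000048096, chromosome 1, 135324807 to 135368065, plus strand) encodes leiomodin 1, which nucleates actin filaments in smooth muscle. It stood at 122, 134 and 201 in Villin Cre mice, inside the control values of 147, 271 and 111, and its log2 fold change was −0.14 (−0.96 to 0.68, adjusted p = 0.873 from limma).

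Transgelin, encoded by *Tagln* (ENSMUSG00000032085, chromosome 9, 45929619 to 45936058, minus strand), is an abundant actin-bundling protein of smooth muscle, yet its normalized counts were 22.0, 38.7 and 25.8 in Villin Cre and 31.6, 55.8 and 33.9 in control mice. These were the lowest counts of the 10 genes in every library. In release 21 of the GENCODE annotation, 1349 of its 1988 exonic bases (67.9%) are also exonic in genes on the opposite strand, 1241 of them in the antisense gene *Gm48529*, which stood at 44.9 to 77.4 normalized counts, and 108 in *Pcsk7*. For *Smtn* that share was 16.3%, for *Mylk* 6.85%, for *Des* 5.86% and for the other 6 members 0%. The kit named in the labels does not mark strand, and how the counting treated reads of overlapping genes is not given in the sources used here, so the level of *Tagln* is uncertain. Reads shared with near-identical genes were less of a concern, since at most 0.34% of the 50-base stretches of any member's transcripts occur in another gene. Its log2 fold change was −0.47 (−1.25 to 0.31, adjusted p = 0.546 from limma).

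The last group held dense body and filament anchorage proteins. *Des* (ENSMUSG00000026208, chromosome 1, 75360329 to 75368579, plus strand) encodes desmin, the intermediate filament protein of muscle. Its normalized counts of 486, 931 and 1389 in Villin Cre and 1154, 3694 and 538 in control mice gave the widest range of the 10, 7.60-fold from Villin Cre replicate 1 to control replicate 2. Its log2 fold change was −0.62 (−2.53 to 1.28, adjusted p = 0.734 from limma). *Synpo2* (ENSMUSG00000050315, chromosome 3, 123076519 to 123236149, minus strand), which encodes the actin- and alpha-actinin-binding protein synaptopodin 2, stood at 289, 365 and 574 against 402, 968 and 294, a log2 fold change of −0.31 (−1.54 to 0.92, adjusted p = 0.805 from limma).

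The spread within genotype sets what these libraries could show. On the log2 scale the SD within genotype was 1.13 for *Des*, 1.08 for *Cnn1*, 1.02 for *Actg2*, 0.81 for *Myh11* and 0.72 for *Synpo2*, each larger than that of at least 93.4% of tested genes, and it was lowest for *Smtn* (0.36, larger than that of 72.8%). The 95% intervals of *Actg2*, *Des* and *Cnn1* therefore reached from a fold change below −2 on the log2 scale to one above 1, and for all 10 they included 0. With 3 libraries each, the values do not tell apart no difference from any other difference that lies inside these intervals.

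**Figure D2:**
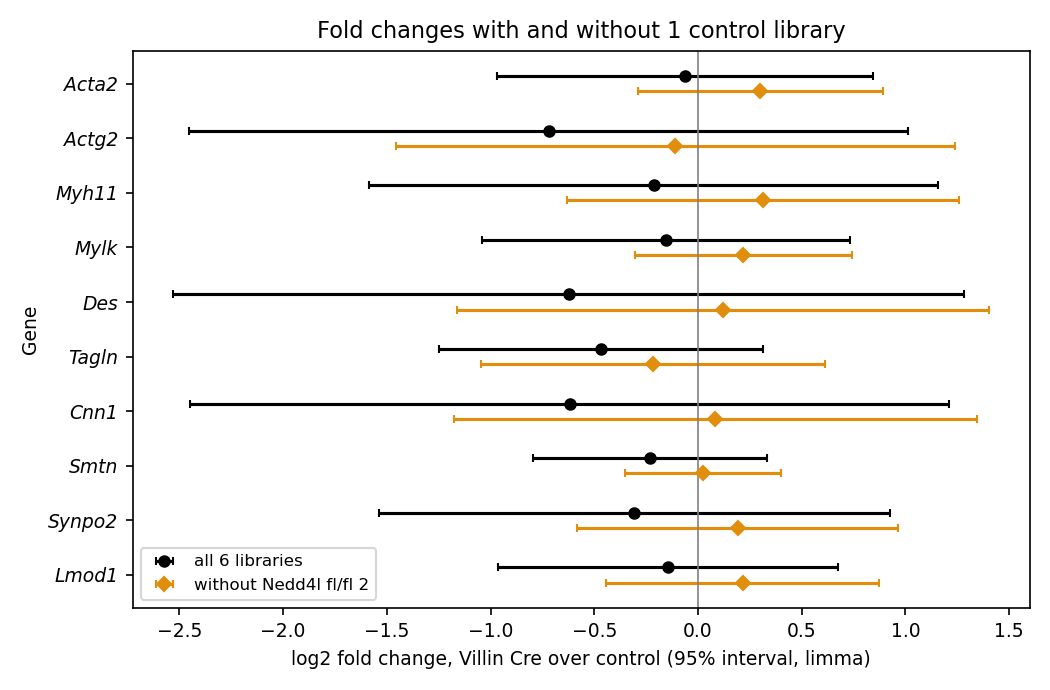
Log2 fold change of each contractile gene, Villin Cre over control, with its 95% interval from limma, for all 6 libraries (black) and without control replicate 2 (orange). With all libraries the 10 points lie between −0.72 and −0.06; without that library they lie between −0.22 and 0.31, and each interval includes 0.

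The direction rested on control replicate 2. Without control replicate 2, *Actg2* (−0.11) and *Tagln* (−0.22) were still below 0, and the other 8 were above 0, from 0.02 for *Smtn* to 0.31 for *Myh11*. Without Villin Cre replicate 2, the library whose *Nedd4l* was nearest to the controls, 9 of the 10 were below 0, with a median of −0.27 and *Acta2* at 0.03. When both control replicate 2 and Villin Cre replicate 1, the ends of the range, were left out, 9 of the 10 were above 0, with a median of 0.36 and *Tagln* at −0.05. None of the 10 passed the adjusted threshold in any of these fits, in which the adjusted p from limma ran from 0.355 to 0.982.

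Summed over the 10 genes, contractile transcripts amounted to 7583, 9923 and 13726 normalized counts in Villin Cre replicates 1, 2 and 3 and to 11371, 25229 and 6818 in control replicates 1, 2 and 3. The means were 10411 ± 3100 and 14473 ± 9589 (SD, n = 3 libraries each). Control libraries thus differed among themselves by 3.70-fold and Villin Cre libraries by 1.81-fold, both more than the means of the genotypes did. A muscle level that weights the genes equally, the mean log2 difference from the control mean, was −0.82, −0.30 and 0.06 in Villin Cre and −0.16, 0.94 and −0.77 in control mice, with means of −0.35 ± 0.44 and 0 ± 0.87. The Villin Cre mean lay below the control mean by less than the SD of either group. Without *Tagln* the difference in means was −0.34, and without control replicate 2 it was 0.11. Epithelial transcripts moved little beside this, since the same measure over 13 epithelial markers was −0.17, 0.08 and −0.18 in Villin Cre and 0.10, 0.03 and −0.14 in control mice. The muscle level minus the epithelial level was −0.65, −0.38 and 0.24 against −0.27, 0.90 and −0.63, the same order of libraries as for muscle alone. All genes together summed to 1.55e+07 to 1.65e+07 normalized counts per library, so contractile transcripts were a small part of each.

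Per kilobase of the gene length given in the table, mean levels fell in the order *Acta2* (1446 normalized counts per kilobase in Villin Cre, 1618 in control), *Actg2* (701 and 1316), then *Myh11* (331 and 428), *Cnn1* (264 and 498), *Des* (249 and 478), *Smtn* (147 and 176), *Mylk* (119 and 141), *Lmod1* (38.6 and 44.6), *Synpo2* (31.1 and 42.2) and *Tagln* (14.5 and 20.3) by the Villin Cre values. In the controls *Cnn1* and *Des* stood above *Myh11*. The last place of *Tagln* is uncertain, since 67.9% of its exonic bases are also exonic in genes on the opposite strand. Within libraries, *Acta2* per kilobase was above *Actg2* in 6 of 6 and *Cnn1* above *Des* in 6 of 6, *Lmod1* was above *Synpo2* in 5 of 6, and *Myh11* was above *Cnn1* in 4 of 6, so that the order of the latter pairs varied between libraries.

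The genes did not scale together to the same degree. Over the 6 libraries the log2 level of *Des* had a Pearson correlation of 0.998 with the mean of the other 9, followed by *Cnn1* (0.994), *Myh11* (0.983), *Synpo2* (0.982), *Actg2* (0.965), *Lmod1* (0.960), *Smtn* (0.936), *Mylk* (0.907), *Acta2* (0.905) and *Tagln* (0.679). These correlations describe 6 libraries and lean on control replicate 2. Without it the value was 0.996 for *Des* but 0.739 for *Acta2*, 0.684 for *Mylk* and 0.06 for *Tagln*. *Cnn1* and *Des* kept nearly the same proportion, 0.791, 0.810 and 0.742 *Cnn1* per *Des* in Villin Cre and 0.813, 0.737 and 0.788 in control mice, while each of them varied by over 7-fold.

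The proportion of the actins was less even. *Acta2* per *Actg2* was 4.47, 1.78 and 2.10 in Villin Cre and 1.61, 1.15 and 2.30 in control mice. Villin Cre replicate 1 stood above all other libraries, and the remaining 2 Villin Cre libraries were within the control range. The difference of the mean log2 ratio was 0.66 (exact permutation test, two-sided p = 0.3, where 3 against 3 cannot go below 0.1), and it was 0.25 without Villin Cre replicate 1. In that library, relative to its own muscle level, *Acta2* was 0.64, *Mylk* 0.59, *Lmod1* 0.39 and *Smtn* 0.29 higher on the log2 scale than in the average control, whereas *Actg2* was at −0.82, *Des* at −0.62 and *Cnn1* at −0.60. *Mylk* per *Myh11* was likewise highest there, at 0.780, against 0.427 to 0.661 in the other 5 libraries.

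**Figure D3:**
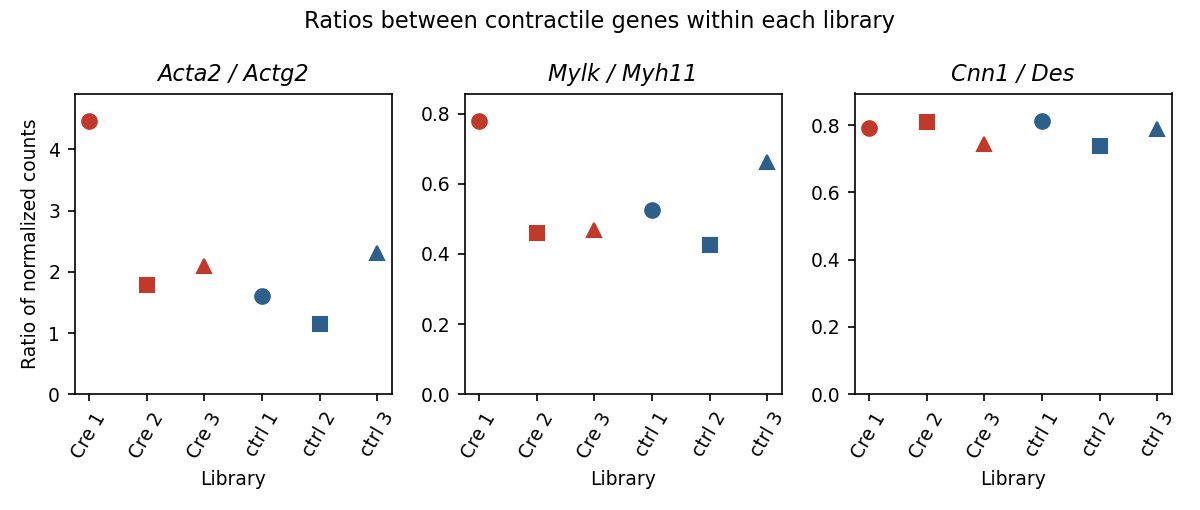
Ratios of normalized counts between pairs of contractile genes in each library (Cre, *Nedd4l* fl/fl Villin Cre; ctrl, *Nedd4l* fl/fl; 1 point per library; axes start at 0). *Acta2* per *Actg2* reaches 4.47 in Villin Cre replicate 1, while *Cnn1* per *Des* stays between 0.737 and 0.813 in all 6 libraries.

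Markers of several other cell types, among them the fibroblasts and pericytes that can express *Acta2*, were also highest in Villin Cre replicate 1. The mean log2 level of 10 fibroblast genes, relative to the control mean, was 1.18, 0.51 and 0.42 in Villin Cre and 0.47, −0.43 and −0.04 in control mice. All 10 had a log2 fold change above 0, with a median of 0.67 (median of all tested genes 0.00), 0 passed the adjusted threshold, and 4 had groups that did not overlap, higher in Villin Cre (10.5% of tested genes). Without Villin Cre replicate 1 the median was 0.40. The collagen gene *Col1a1* stood at 7907, 3461 and 4009 normalized counts against 2452, 1862 and 2254, which is 1.14 on the log2 scale (limma, adjusted p = 0.280), and *Col1a2* and *Col3a1* gave 0.98 and 1.08. For 6 pericyte genes, cells that wrap small vessels, the level was 1.26, −0.03 and 0.36 against 0.18, 0.06 and −0.24, with all 6 above 0 and a median of 0.51 that was 0.15 without Villin Cre replicate 1. *Rgs5*, a pericyte marker, gave 2047, 718 and 970 against 695, 793 and 577. The level of 9 leukocyte genes was 1.15, 0.28 and 0.54 against 0.04, −0.24 and 0.20. Much of that came from *S100a8*, a neutrophil gene, at 2708, 31.0 and 417 normalized counts against 12.8, 38.7 and 29.0, and the level of the other 8 was 0.45, 0.27 and 0.11 against 0.15, −0.35 and 0.20. The level of 6 endothelial genes was 0.89, 0.21 and 0.20 against 0.22, −0.28 and 0.06. Control replicate 2, the library highest in contractile genes, was the lowest of the 6 for the fibroblast, leukocyte and endothelial lists. The part of these cells in the contractile values was not tested.

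Interstitial cells of Cajal, the pacemaker cells of the gut, lie within the muscle layers. Their 4 markers had log2 fold changes below 0 (49.8% of tested genes had), with a median of −0.49. For 3 of the 4, the Villin Cre values were all below the controls (10.9% of tested genes had), but 0 passed the adjusted threshold. *Kit*, the receptor tyrosine kinase that these cells depend on and that mast cells share, stood at 283, 645 and 531 normalized counts in Villin Cre and 739, 724 and 703 in control mice, which gave −0.65 on the log2 scale (limma, adjusted p = 0.382). *Thbs4* gave 4012, 4751 and 4433 against 5356, 5796 and 5623 (−0.35, adjusted p = 0.215 from limma) and *Etv1* 54.6, 58.6 and 76.3 against 85.9, 98.1 and 77.9 (−0.47, adjusted p = 0.381). The groups overlapped for *Ano1*, at 1885, 3977 and 3534 against 4788, 3819 and 4163 (−0.51, adjusted p = 0.464 from limma). *Ano1* and *Thbs4* stood above *Des* in every library, and which cells gave the reads of these markers was not tested. The level of the list was −0.91, −0.26 and −0.31 in Villin Cre and 0.03, 0.02 and −0.05 in control mice, so that it did not follow the muscle level among the controls. Without Villin Cre replicate 1 the median of the 4 was −0.29. Of 9 enteric neuron genes 5 were tested, and their level, 0.48, −0.63 and 0.58 against −0.24, 1.05 and −0.81, was highest in control replicate 2 and lowest in control replicate 3, the order of the controls for muscle too. *Tubb3*, *Ret* and *Uchl1*, the neuron genes with the smallest p, had log2 fold changes of 0.91, 0.77 and −0.51, each with an adjusted p of at least 0.503 from limma. For the enteric glia, 4 of 5 genes were tested, with a median of −0.09.

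**Figure D4:**
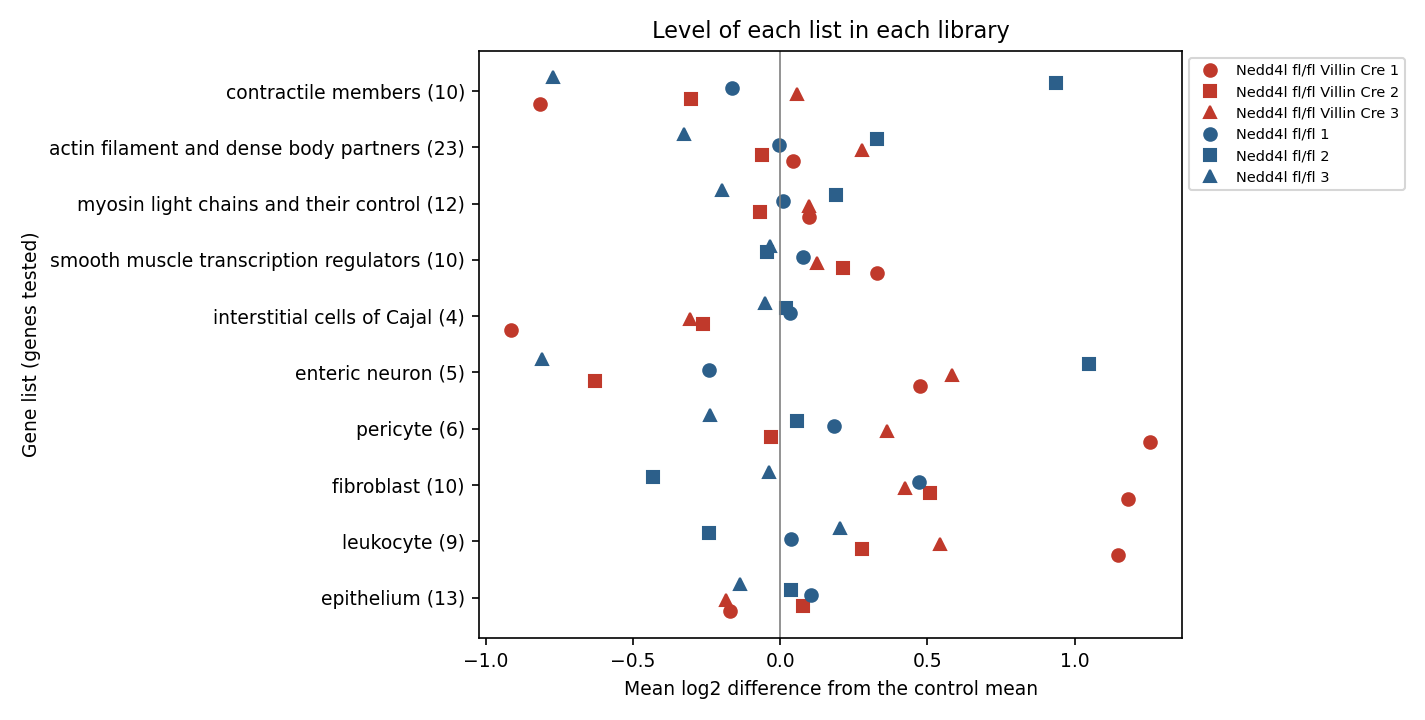
Mean log2 difference from the control mean for each gene list (number of tested genes in parentheses), 1 point per library, *Nedd4l* fl/fl Villin Cre in red and *Nedd4l* fl/fl in blue. Contractile genes run from −0.82 to 0.94 with the genotypes mixed; Villin Cre replicate 1 is the lowest for contractile and interstitial cell genes and the highest for pericyte, fibroblast and leukocyte genes.

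Genes of other muscle types were mostly low. Of 10 skeletal muscle genes 8 were listed and 3 tested, and the 8 together summed to 96.8 to 142 normalized counts per library. The 5 cardiac genes summed to 65.2 to 440, the highest being Villin Cre replicate 1, where *Myl7*, which encodes the atrial light chain, stood at 366 against 14.8 to 97.0 in the other libraries. Of the mesothelial list, cells that cover the outer face of the gut, 2 genes were tested. *Msln* stood at 114, 16.6 and 26.8 in Villin Cre and 5.93, 14.4 and 12.0 in control mice, again highest in Villin Cre replicate 1 (log2 fold change 1.78, adjusted p = 0.338 from limma). The adipocyte list had 2 tested genes, *Fabp4* (log2 fold change 0.15) and *Cfd* (−0.86).

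The remaining genes of the contraction pathway, listed by function and not by cell type, followed the contractile members in part. The share of their reads that came from muscle cells was not tested. Of 23 actin filament and dense body partners, 9 were lower and 14 higher in Villin Cre mice (median log2 fold change 0.08). Control replicate 2 was the highest library for 11 of the 23, against 18.2% of all tested genes. *Pdlim7*, which encodes a PDZ and LIM domain protein of actin fibers, stood at 670, 395 and 471 against 305, 367 and 262 (0.69, adjusted p = 0.278 from limma). The focal adhesion genes *Zyx* (0.32) and *Lpp* (0.32) were the next by p, with adjusted p of 0.315 and 0.358. The 12 genes of myosin light chains and their control had 3 lower and 9 higher and a median of 0.05. In this list *Ppp1r14a*, whose product inhibits myosin phosphatase, gave 172, 165 and 171 against 137, 138 and 127 (0.34, adjusted p = 0.352 from limma), and *Arhgef12*, an activator of RhoA, had a log2 fold change of 0.16. *Myl9* followed the contractile genes, at 804, 945 and 1160 against 1158, 2123 and 836 (−0.41, adjusted p = 0.623).

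Among 10 transcription regulators of smooth muscle, 2 were lower and 8 higher, with a median of 0.20. Control replicate 2 was the highest library for 0 of the 10, against 18.2% of all tested genes. Here too the share of reads from muscle cells was not tested. *Myocd*, the gene of myocardin, stood at 47.9, 23.2 and 32.0 normalized counts in Villin Cre and 16.8, 23.4 and 8.99 in control mice. It was highest in Villin Cre replicate 1, one of the libraries lowest in contractile genes, and its log2 fold change was 1.06 (95% interval 0.06 to 2.05, adjusted p = 0.341 from limma). *Myocd* per *Des* was 0.0986, 0.0249 and 0.0230 in Villin Cre and 0.0145, 0.00633 and 0.0167 in control mice. *Nkx2-3*, a homeobox gene of gut mesenchyme, and *Srf* had log2 fold changes of 0.30 and 0.17 (adjusted p = 0.359 and 0.460 from limma).

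Ion handling and receptors were mixed. Of 15 calcium and potassium handling genes 14 were tested, of which 3 had lower and 11 higher means (median 0.13), and the sodium and calcium exchanger *Slc8a1* (0.42), *Kcnmb1* (0.64) and *Kcnma1* (0.29), which encode subunits of the large-conductance potassium channel, had the smallest p. Of 15 receptor and relaxation genes 13 were tested, of which 7 had lower and 6 higher means. *P2ry1*, a receptor for purines that relax gut muscle, stood at 229, 312 and 283 against 349, 381 and 389, without overlap (−0.45, adjusted p = 0.281 from limma), and the endothelin receptor genes *Ednra* and *Ednrb* had log2 fold changes of 0.70 and 0.57. Of 13 caveola and membrane anchorage genes 11 were tested, 5 lower and 6 higher, and *Sgcb* (0.65), *Sgce* (0.40) and *Itgb1* (0.28) had the smallest p. None of the genes in any of these lists passed the adjusted threshold.

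The 10 protein-coding genes most like the contractile mean, by Pearson correlation of log2 values over the 6 libraries among 10778 genes averaging at least 100, were *Ppp1r12b* (0.994), *Lims2* (0.988), *Rdh14* (0.984), *Myl9* (0.984), *Zfp219* (0.983), *Ncapg* (0.982), *Synm* (0.980), *Stum* (0.978), *Omp* (0.975) and *Fip1l1* (0.969). Of the genes compared, 0.482% reached 0.9. The 10 are the highest picked from many genes over 6 libraries. How many genes would reach 0.9 without any link to muscle was not tested. *Synm*, the gene of the intermediate filament protein synemin, ranged as widely as *Des*, at 145, 213 and 505 normalized counts in Villin Cre and 264, 1034 and 142 in control mice. *Ppp1r12b*, which encodes a targeting subunit of myosin phosphatase, had the order of the contractile genes within a narrower range, at 508, 579 and 711 against 620, 991 and 507. *Zfp219* and *Fip1l1* spanned only 1.15-fold and 1.18-fold over the libraries, so a high correlation did not mean a like amplitude.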

How the data were processed

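Libraries were made from colon, 3 of *Nedd4l* fl/fl Villin Cre and 3 of *Nedd4l* fl/fl mice. The authors deposited normalized counts, a signal equal to the reads of a gene divided by a size factor of its library. The submitters' processing notes name HISAT2 2.0.5, featureCounts 1.5.0-p3 and the human build hg18. The table itself holds mouse identifiers, and 97.0% of its genes have the coordinates of GENCODE release 21 on GRCm38. Columns in which the authors deposited the log2 fold change, p-value and adjusted p-value of their own comparison were not used.

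Values were transformed to log2(value + 1), which understates changes of low genes, and genes with a mean of at least 10 were fitted with limma 3.58.1 under R 4.3.3 (trend and robust settings, Benjamini-Hochberg adjustment, threshold 0.05, 95% intervals). The labels do not say that each library came from a separate animal, so p-values measure the spread between these samples, which may be technical. *Acta2* per *Actg2* was compared between the genotypes with an exact permutation test in scipy 1.17.1, and the other ratios were not tested. Alternatives were other pseudocounts, filters, scalings, weights and left-out libraries. Promoter sequences are those of RefSeq on GRCm38.p6.

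The contractile genes and the other gene lists were chosen with earlier results of these data known. Named genes were all 10 members, *Nedd4l*, up to 3 tested genes with the smallest p in each other list, and the 10 protein-coding genes most like the mean of the members. *Gm48529* and *Pcsk7* are named because they share exonic bases with *Tagln*, and *Ano1* because it completes the interstitial cell markers. The ratios other than *Acta2* per *Actg2* and the genes with CArG boxes were chosen after their values or sequences were seen.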

Additional observations from a re-analysis of the deposited data

How the results depend on the processing

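None of the 10 contractile genes passed the adjusted threshold under any alternative run, with adjusted p from limma of 0.279 to 1.000. Their direction was less stable. The number below 0 was 10 with all libraries at equal weight, 3 with array weights and 1 without both control replicate 2 and Villin Cre replicate 1, a setting chosen after seeing the data, and it ran from 2 to 10 when 1 library was left out. The median log2 fold change was 0.16 with array weights, 0.36 without both end libraries and between −0.62 and 0.16 without 1 library, and the difference in muscle level was 0.35 without both end libraries and between −0.74 and 0.11 without 1. With array weights, which gave Villin Cre replicate 3 a weight of 4.39 and the others 0.41 to 1.34, the fold changes above 0 were *Acta2* 0.28, *Myh11* 0.37, *Mylk* 0.19, *Des* 0.14, *Cnn1* 0.0827, *Synpo2* 0.24 and *Lmod1* 0.28. Without both end libraries they were *Acta2* 0.35, *Actg2* 0.35, *Myh11* 0.60, *Mylk* 0.25, *Des* 0.53, *Cnn1* 0.48, *Smtn* 0.17, *Synpo2* 0.41 and *Lmod1* 0.36. Leaving out 1 library gave ranges of −0.41 to 0.30 for *Acta2*, −1.32 to −0.11 for *Actg2*, −0.68 to 0.31 for *Myh11*, −0.46 to 0.22 for *Mylk*, −1.27 to 0.12 for *Des*, −0.69 to −0.22 for *Tagln*, −1.26 to 0.0835 for *Cnn1*, −0.36 to 0.0239 for *Smtn*, −0.67 to 0.19 for *Synpo2* and −0.42 to 0.22 for *Lmod1*. Pseudocounts of 0.5 and 5, no filter, equal totals, quantile normalization, limma without trend and robust settings and the replicate block left all 10 below 0, and a mean of at least 50 removed *Tagln*.

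Across all genes, calls were 23 lower and 7 higher with no filter, 369 lower and 262 higher with array weights, 4 lower and 5 higher without both end libraries, and 0 to 52 lower and 0 to 70 higher without 1 library, the most without Villin Cre replicate 2. Same-numbered libraries did not deviate together over the tested genes (correlations of −0.03, −0.09 and −0.06). These values gave no sign of pairing by number but cannot exclude it, since a pairing could act weakly or on few genes. A fit with the replicate block gave 0 lower and 0 higher, 10 contractile genes below 0 with a median of −0.27 and 0 called. The medians of the fibroblast, pericyte, endothelial and interstitial cell lists kept their sign without 1 library, whereas those of the actin partner, light chain, receptor, neuron, glia, epithelial, cardiac and adipocyte lists changed sign in at least 1 such fit. The log2 difference in *Acta2* per *Actg2* was 0.25 to 0.92 without 1 library. Count models were planned if whole reads could be recovered. Every value was a whole multiple of its library's smallest value, but how many reads that stands for is not stated, and these models were not run. With 3 libraries a genotype, and a spread within genotype of the size given above, differences that lie inside the intervals above cannot be told apart. Depth limits *Tagln* most, the member with the fewest counts, and its overlap with genes on the opposite strand adds to the uncertainty of its level.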
